A study of Homo sapiens with 2 samples.

Results

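Small nuclear RNA (snRNA) genes were taken as the genes of type snRNA in the RefSeq table of the hg38 build (GRCh38.p14) on chromosomes 1 to 22, X and Y. There were 154 of them among 59679 genes, and each was set beside the peaks of 2 chromatin immunoprecipitation libraries. The cells were NB4, an established line from acute promyelocytic leukemia that carries the PML-RARA fusion. A gene was counted for an antibody when a peak overlapped it by at least 1 bp or had its midpoint within 1 kb of it. The libraries, 1 per antibody, came from cells fixed with formaldehyde, with no other treatment in the labels, and were made with ab21061 and with sc8558, which the labels describe as binding separate portions of the transcriptional repressor GFI1. The immunoprecipitation protocol in the labels names antibodies to PML/RARα in place of GFI1, and the sc8558 sample carries GFI2 in its title. Groups follow the antibody labels. The lists held 7687 peaks for ab21061 and 7562 for sc8558. No control library was analysed here, the sequencing depth is unknown, and with 1 library per antibody all values describe these libraries and carry no test between antibodies.

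The members fell into groups by symbol. There were 21 U1 genes, 3 U2, 2 U4, 5 U5 and 5 U6 genes, and 1 gene each for U4atac, U6atac, U11, U12, U7 and 7SK. Another 28 were snaR genes, which encode short transcripts bound by the protein NF90 and are not spliceosomal, and 84 were LOC entries whose symbol gives no group. The label therefore held for a minority by symbol. Leaving out U7, which is not spliceosomal, 41 members belonged to the spliceosomal groups or to 7SK.

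The U1, U2, U4, U5 and U6 RNAs are the RNA cores of the major spliceosome, in which U1 and U2 recognise the ends and the branch site of an intron and U6, delivered paired with U4, forms part of the catalytic centre with U5. U4atac, U6atac, U11 and U12 serve the minor spliceosome, U7 guides the cutting of histone messenger precursors, and 7SK holds the elongation kinase P-TEFb inactive. Their genes are compact, with a proximal sequence element bound by the SNAPc complex and a distal element bound by the octamer factor encoded by POU2F1. RNA polymerase II transcribes most of them, and RNA polymerase III transcribes U6, U6atac and 7SK. GFI1 is a zinc-finger protein of blood cells whose known DNA motif has AATC at its core.

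Peaks lay at 17 snRNA genes with ab21061 (11%, exact Clopper-Pearson 95% interval 6.56 to 17.1) and at 19 with sc8558 (12.3%, 7.59 to 18.6), against 6.72% and 6.84% of all genes. With both antibodies there were 13 (8.44%, 4.57 to 14.0), against 5.08% of all genes, and with either there were 23. The intervals cover counting error only, and neighbouring members can share a peak. Gene length enters this rule, since the median snRNA gene was 120 bp long against 5512 bp for the median gene of any type. When only peak midpoints within 1 kb of the gene midpoint were counted, the members numbered 17 with ab21061 (11%, 6.56 to 17.1), 16 with sc8558 (10.4%, 6.06 to 16.3) and 12 with both (7.79%), against 0.670%, 0.734% and 0.422% of all genes. Ends and start sites of other genes gave shares above that background but below those of the snRNA genes. Both ends of each protein-coding gene were tried. A peak midpoint lay within 1 kb of either end for 3.19% of 20037 genes with ab21061 and 3.37% with sc8558. For an annotated start site, a single point, the shares within 1 kb were 2.31% and 2.53% of 35116 promoters. These differences were not tested.

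Short genes of other types give a comparison at like length. By midpoints, 0.917% of 1199 snoRNA genes and 0.470% of 1913 miRNA genes had an ab21061 peak, and 0.834% and 0.575% had an sc8558 peak. The tRNA genes, transcribed by RNA polymerase III, stood near the snRNA genes, with 9.26% and 8.80% of 443. Pseudogenes named after the same RNAs (2112 in all, such as RNU6-246P) had 0.758% with ab21061 and 1.04% with sc8558. The intervals of the snRNA shares, from 6.56% and 6.06% upward, did not meet those of the snoRNA genes, the miRNA genes or the pseudogenes. They overlapped those of the tRNA genes (6.72 to 12.3% and 6.34 to 11.8%). Counting error is all that these intervals cover, and members that share a peak enter as separate genes. Differences between the gene types were not tested.

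**Figure D1:**
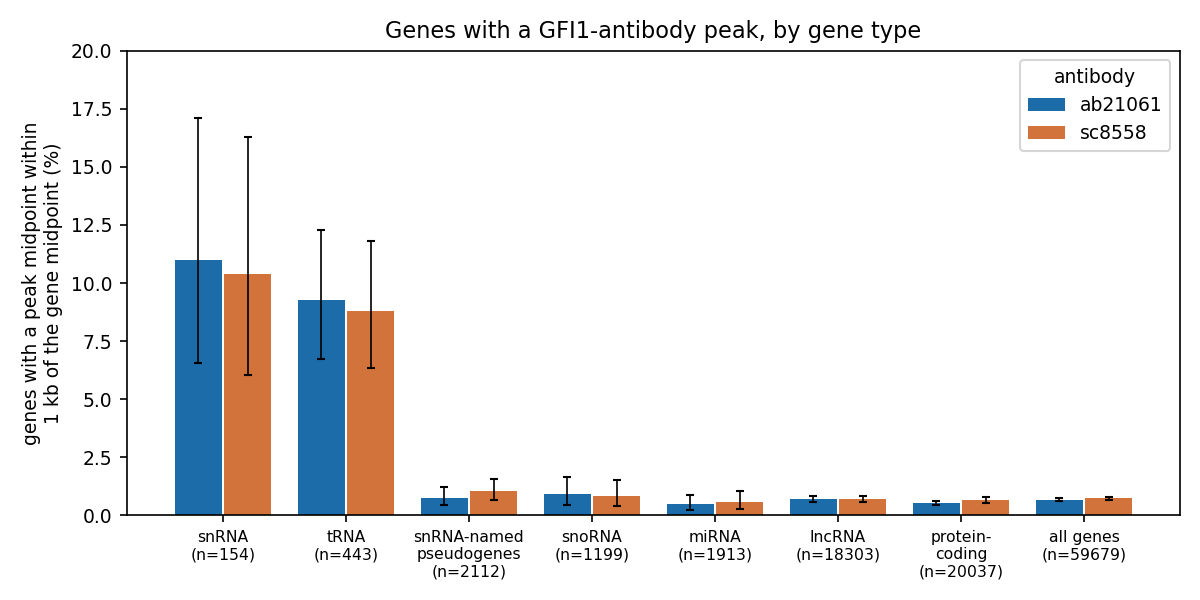
Share of genes (%) with a peak midpoint within 1 kb of the gene midpoint, by gene type and antibody. Bars are shares and whiskers exact 95% binomial intervals. The snRNA genes stand at 11% with ab21061 and 10.4% with sc8558, near the tRNA genes, and the other types lie at 1.04% or lower.

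The peaks lay close to the genes themselves. An ab21061 peak midpoint lay within 0.2 kb of the gene midpoint for 7 snRNA genes (4.55%), against 2.48% of tRNA genes, 0.0947% of the pseudogenes and 0.115% of protein-coding genes. For sc8558 there were 12 snRNA genes (7.79%), against 3.16%, 0.189% and 0.180%. Within 100 kb the shares drew nearer to each other, with 56.5% of snRNA genes and 39.3% of protein-coding genes for ab21061, and 55.2% and 40.1% for sc8558. More than 100 kb from any peak midpoint lay 67 snRNA genes with ab21061 and 69 with sc8558.

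**Figure D2:**
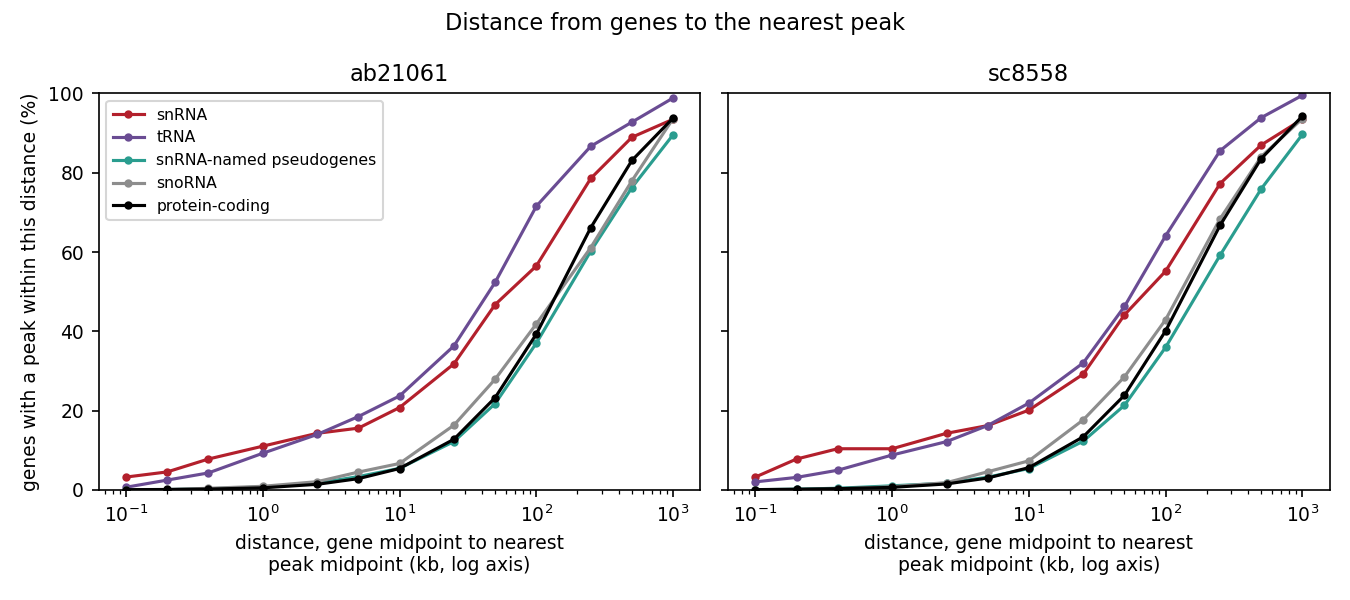
Share of genes (%) whose midpoint has a peak midpoint within the distance on the log axis (kb), for each antibody and 5 gene sets. The snRNA and tRNA curves lie above the other 3 at short range, the snRNA genes with 4.55% (ab21061) and 7.79% (sc8558) within 0.2 kb.

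Most peaks covered the gene whole, as wide peaks picked by nearness to short genes tend to. The median width was 1023 bp with ab21061 and 878 bp with sc8558, against a median gene length of 120 bp. The coverage and distances given here describe the picked peaks and are no separate measure of nearness. Of the 17 ab21061 genes 15 were overlapped by a peak, all 15 along their full length, and the exceptions were RNU6-7 and RNU6-8. Of the 19 sc8558 genes all were overlapped and 17 were covered whole. The highest-scoring peak at each gene had its midpoint a median of 220 bp from the gene midpoint with ab21061 (12 to 831 bp) and 160 bp with sc8558 (9 to 3542 bp). The far end of the sc8558 range belonged to a single peak of 7065 bp over SNAR-A12 and SNAR-C5.

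**Figure D3:**
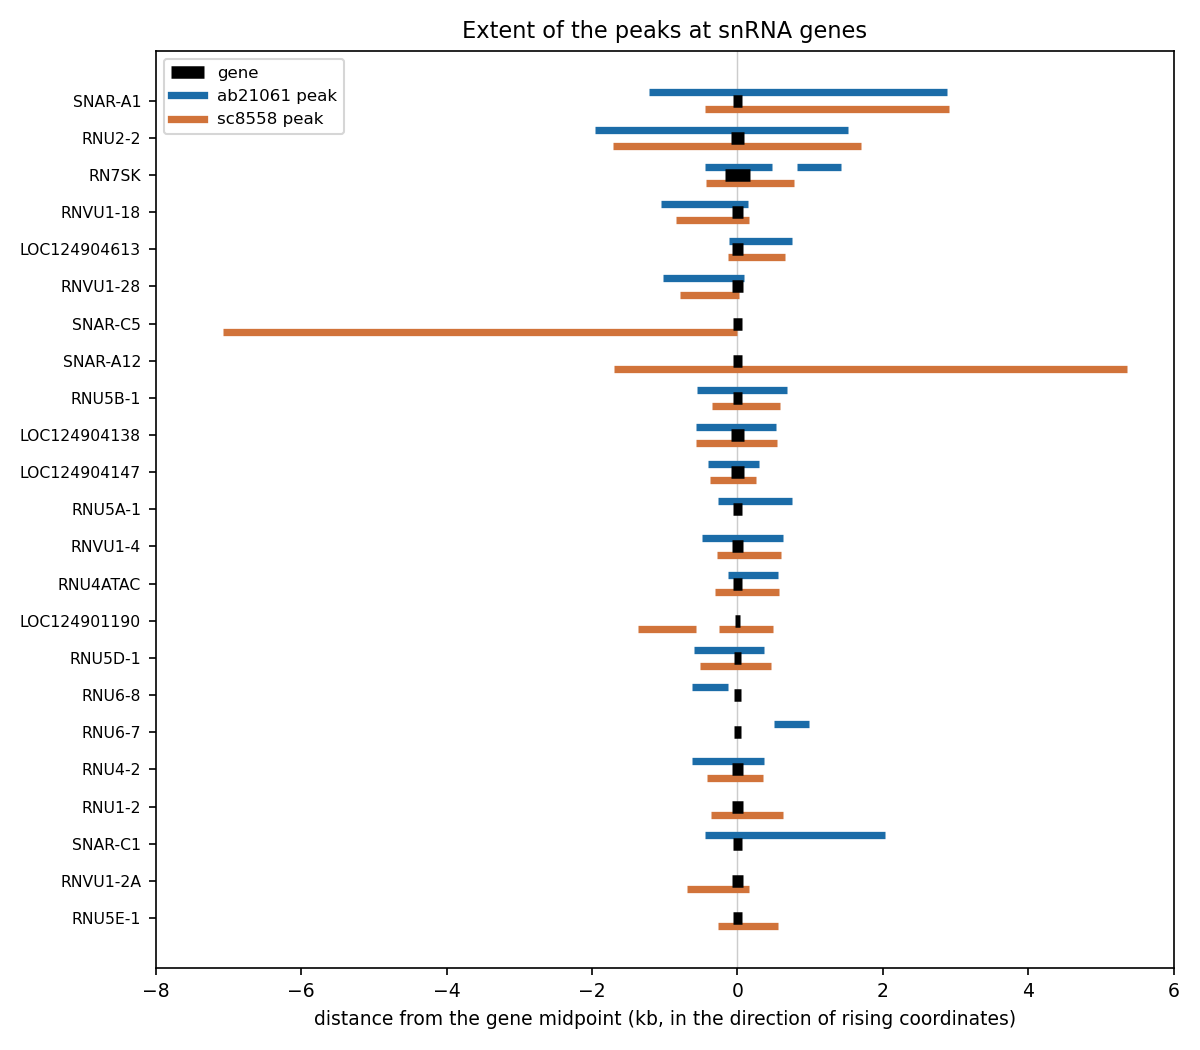
Extent of every peak at the 23 snRNA genes with a peak, as distance from the gene midpoint (kb, rising coordinates to the right). Black blocks are genes, blue bars ab21061 peaks and orange bars sc8558 peaks, and most bars cross the gene at 0 and span about the same stretch with both antibodies.

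Behind these genes stood 17 distinct ab21061 peaks and 19 distinct sc8558 peaks, 0.221% and 0.251% of their lists. The other antibody overlapped 13 of the 17 and 14 of the 19. Scores are the authors' own values from the peak caller, and are read here only within a list. Median scores of the peaks at snRNA genes were 124 with ab21061 and 79.7 with sc8558, in lists with medians of 82.4 and 81.7. In each list 4 of these peaks ranked in the top 10% by score. Only 3 of the distinct peaks of each antibody had a midpoint within 1 kb of an end of a protein-coding gene, and 9 of 17 and 8 of 19 met the distance rule for no gene of another type.

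**Figure D4:**
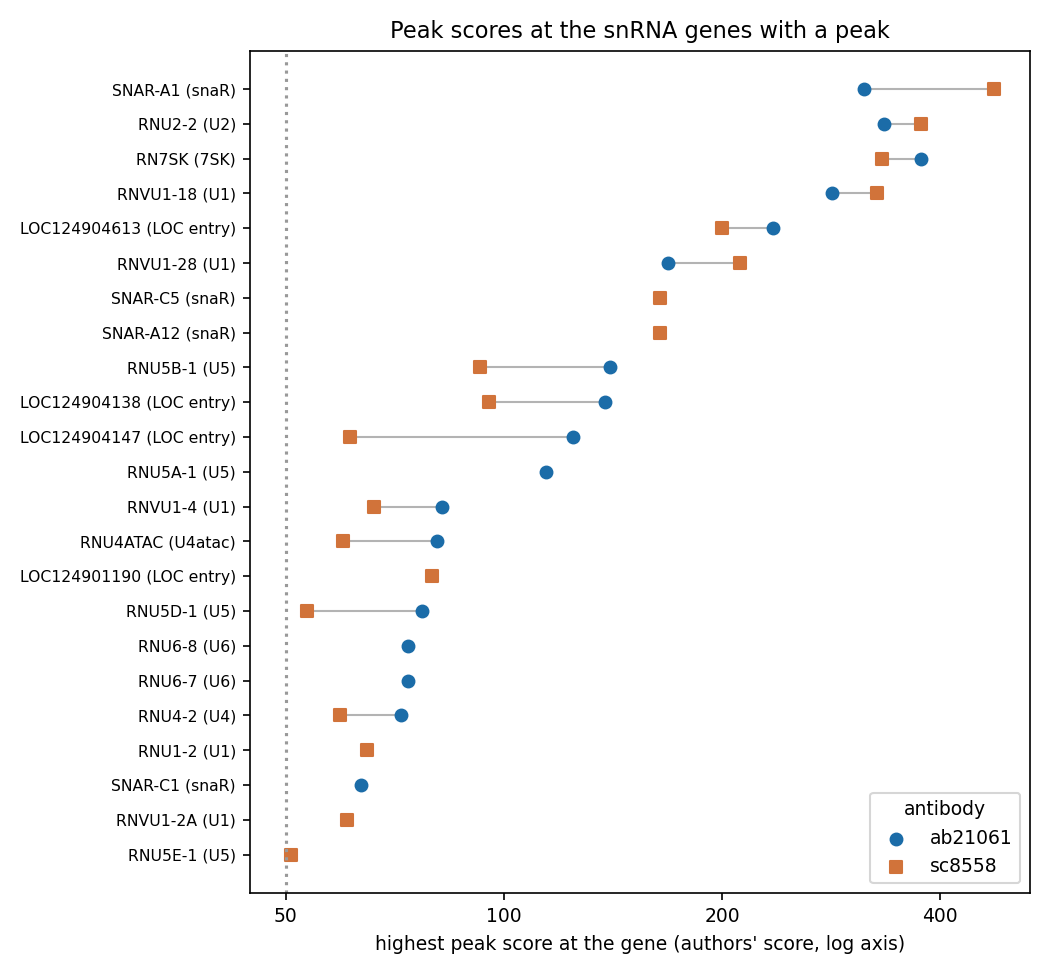
Highest peak score (authors' score, log axis, lists start at the dotted line at 50) at each snRNA gene with a peak, for ab21061 (circles) and sc8558 (squares), with a line joining the values of 1 gene. RNU2-2, RN7SK, RNVU1-18 and SNAR-A1 lie highest, at 284.18 or higher in both lists, and genes marked by 1 antibody lie at 164.43 or lower.

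The 7SK gene, RN7SK (chromosome 6, 52995620 to 52995951), had the highest ab21061 score among the members. Its ab21061 peak from 52995334 to 52996261 scored 375.96, rank 369 of 7687, and its sc8558 peak from 52995358 to 52996569 scored 332.33, rank 419 of 7562. The peaks shared 904 bp, and both covered the whole gene. A further ab21061 peak at 52996601 to 52997211 scored 66.49 and had no sc8558 counterpart. Under the main peaks lies also the promoter of GSTA4, a glutathione transferase gene, whose start is 0.513 kb from the ab21061 midpoint.

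Among the 3 U2 genes, RNU2-2 (chromosome 11, 62841619 to 62841809) had a wide peak with each antibody. With ab21061 it ran from 62839759 to 62843229 and scored 334.97, and with sc8558 from 62840002 to 62843408 and scored 376.60. The widths, 3471 and 3407 bp, stood above the list medians of 776 and 746 bp. The same peaks met the rule for WDR74, a ribosome assembly gene. An end of WDR74 lay 0.315 kb from the ab21061 midpoint and 0.104 kb from the sc8558 midpoint, so the peaks cannot be assigned to RNU2-2 alone. RNU2-1 on chromosome 17 and RNU2-63P on chromosome 2 had no peak, and the nearest ab21061 midpoints were 17.9 and 263 kb away.

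RNU2-1 lies at the low-coordinate edge of a stretch of 134 kb with 13 LOC entries of 189 to 192 bp, close to its own 188 bp. In that stretch 2 genes had peaks, each with both antibodies. LOC124904138 scored 137.91 with ab21061 and 95.26 with sc8558, and LOC124904147, at the far edge, scored 124.37 and 61.35. The pair of peaks at LOC124904147 had midpoints 2 bp apart. The other 12 genes had none. The treatment of reads that match several copies is not given in the sources used here, so which copy the reads came from cannot be told apart.

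**Figure D5:**
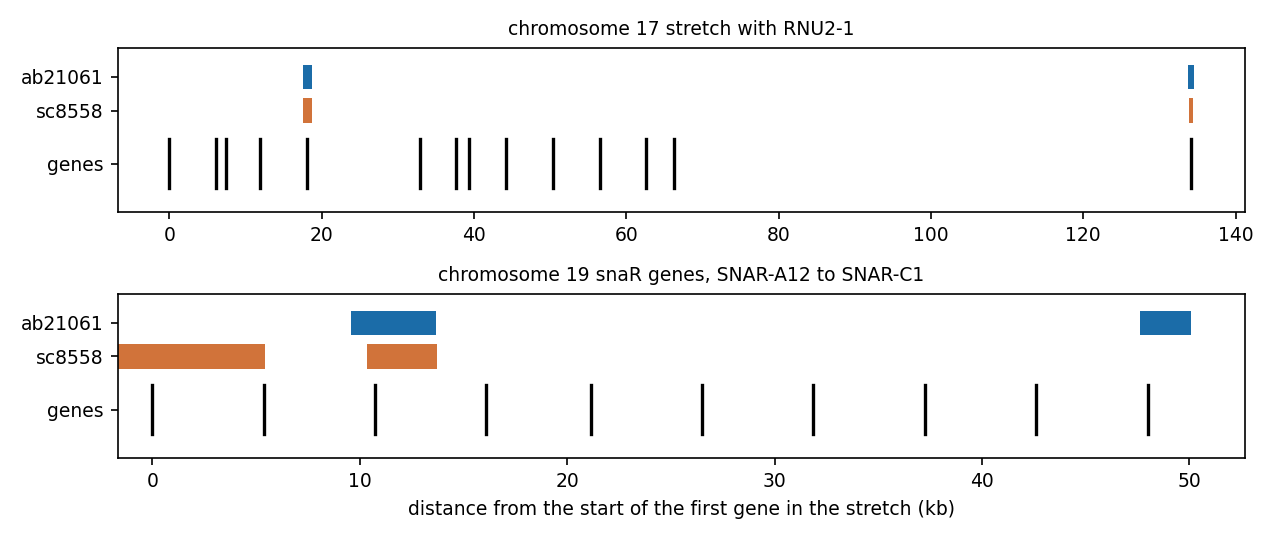
Genes (black ticks) and peaks (bars) along the chromosome 17 stretch with RNU2-1 and along the chromosome 19 snaR genes from SNAR-A12 to SNAR-C1, as distance from the first gene (kb). In the upper panel both antibodies mark the same 2 of 14 genes, and in the lower panel the peaks sit at the edges and near SNAR-A1.

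All 21 U1 genes lie on chromosome 1. Of these, 3 had peaks with both antibodies and 2 more with sc8558 alone. The 17 RNVU1 genes, with all 3 of those with both peaks, span 28786 kb. That span held 214 of the 7687 ab21061 peaks and 205 of the 7562 sc8558 peaks. Whether the number of peaks in the span bears on those at U1 genes was not tested. RNVU1-18 (143729407 to 143729570) scored 284.18 with ab21061 and 327.18 with sc8558, and the peaks shared 992 bp. RNVU1-28 (144560666 to 144560829) scored 168.31 and 211.74, and RNVU1-4 (120942600 to 120942763) scored 82.13 and 66.09. Of the 4 RNU1 genes, which encode the abundant U1 form, only RNU1-2 had a peak, with sc8558 and a score of 64.69, while the nearest ab21061 midpoint lay 29.1 kb away. RNVU1-2A had an sc8558 peak with a score of 60.73. LOC124904613, an entry of 164 bp like RNVU1-18 and with no group in its symbol, lies among the RNVU1 genes and scored 235.06 and 199.78. The remaining 16 U1 genes had no peak by the rule. The closest to a peak were RNVU1-26 and RNVU1-19, at 1.89 and 3.21 kb from an ab21061 midpoint and 1.99 and 3.17 kb from an sc8558 midpoint. Sequences of the U1 genes were not compared here, and whether reads shared between copies entered these peaks was not tested.

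U5 genes had the fullest coverage of the groups with more than 3 members, with peaks at 4 of 5. RNU5B-1 (chromosome 15, 65304677 to 65304793) scored 140.31 with ab21061 and 92.78 with sc8558, and RNU5D-1 (chromosome 1, 44731069 to 44731170) scored 77.02 and 53.54. RNU5A-1, the neighbour of RNU5B-1, had an ab21061 peak of 114.45, rank 2417, and its nearest sc8558 midpoint was 8.68 kb away. RNU5E-1 had only an sc8558 peak, whose score of 50.90 stands just above the list minimum of 50.01. RNU5F-1, without a peak, lay 9.10 and 9.19 kb from the midpoints of the peaks at RNU5D-1. A gene found with a single antibody is thus not shown to differ between them, since a peak below the score limit is not listed.

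Of the 2 U4 genes, RNU4-2 (chromosome 12, 120291759 to 120291903) had peaks with both antibodies, with scores of 72.04 and 59.37. RNU4-1, the neighbouring copy, fell outside the rule, with the same peaks at 1.39 and 1.30 kb. RNU4ATAC (chromosome 2, 121530880 to 121531009), the U4atac gene inside CLASP1, scored 80.85 with ab21061 and 59.86 with sc8558, and the sc8558 peak held the whole ab21061 peak of 686 bp. U6atac, U11, U12 and U7 had no peak. The nearest ab21061 midpoints lay 31.2 kb from RNU6ATAC, 137 kb from RNU11, 196 kb from RNU12 and 39.7 kb from RNU7-1.

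U6 genes carried little. A single ab21061 peak of 484 bp, with a score of 73.73, lay between RNU6-7 and RNU6-8 on chromosome 14 and overlapped neither, with its midpoint 0.688 and 0.325 kb away. The nearest sc8558 midpoints were 276 and 277 kb away. RNU6-1, RNU6-9 and RNU6-2 had no peak, at 11, 20.8 and 46.7 kb from an ab21061 midpoint. Among the U6, U6atac and 7SK genes alone, RN7SK thus held strong peaks with both antibodies, whereas no U6 gene was overlapped by a peak of either.

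No promoter sequence of an snRNA gene was matched in the RefSeq promoter table (0 of 154). The windows shown here, each 250 bases before to 50 after a start site in GRCh38.p14, are those of protein-coding genes that peaks at RNU4-2, RN7SK and RNU2-2 reached, chosen after their values were seen. They show the sequence beside these snRNA genes, on the strand of the named gene. Capitals mark matches on either strand to 6 short motifs.
SIRT4, chr12:120291939-120292238, plus strand: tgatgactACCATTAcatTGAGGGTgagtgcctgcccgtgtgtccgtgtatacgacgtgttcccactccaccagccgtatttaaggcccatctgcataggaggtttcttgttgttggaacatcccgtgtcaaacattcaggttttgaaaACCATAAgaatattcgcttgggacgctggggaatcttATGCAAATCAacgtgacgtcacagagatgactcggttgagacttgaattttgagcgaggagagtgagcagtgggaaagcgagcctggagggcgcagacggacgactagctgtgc
GSTA4, chr6:52995235-52995534, minus strand: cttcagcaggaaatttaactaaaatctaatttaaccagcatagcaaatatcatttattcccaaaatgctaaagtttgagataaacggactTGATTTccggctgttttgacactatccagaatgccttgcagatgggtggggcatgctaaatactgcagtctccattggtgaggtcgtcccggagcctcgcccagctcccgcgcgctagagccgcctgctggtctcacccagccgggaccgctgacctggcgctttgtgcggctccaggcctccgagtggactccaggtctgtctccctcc
WDR74, chr11:62839610-62839909, minus strand: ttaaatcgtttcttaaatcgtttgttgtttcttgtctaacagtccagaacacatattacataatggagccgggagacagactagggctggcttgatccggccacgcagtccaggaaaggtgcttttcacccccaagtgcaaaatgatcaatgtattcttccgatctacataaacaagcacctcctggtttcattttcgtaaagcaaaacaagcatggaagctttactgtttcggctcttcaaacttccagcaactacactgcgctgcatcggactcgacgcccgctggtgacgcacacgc

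The window of SIRT4, a mitochondrial sirtuin gene, begins 36 bp from RNU4-2, on its high-coordinate side. No strand was given for RNU4-2, so whether the window lies before or after that gene was not determined. Of the window's bases, the ab21061 and sc8558 peaks covered 259 and 241. It holds 3 matches to ACCNTNA, the core searched for the proximal sequence element, of which 27.1% of 35116 windows hold at least 1. It also holds the octamer ATGCAAAT, found in 1.77% of windows, overlapped by a match to AAATCA, a form of the GFI1 core found in 13.2% of windows. GSTA4's window ends 86 bp from RN7SK, and 201 and 177 of its bases lay under the peaks. Its only match was to AAATCA, on the opposite strand. The WDR74 window lies 1710 bp from RNU2-2, was reached by the ab21061 peak alone, over 151 bases, and held no match. No match was found in any of the 3 windows to TATAAA (11.5% of all windows), to AATCNC (32.2%), or to ACTACAA (2.77%), the core searched for ZNF143. These are matches of letters, not shown sites.

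Among the 28 snaR genes, peaks were found at 4, all within a run of 10 copies on chromosome 19. SNAR-A1 (47918429 to 47918550) held the highest sc8558 score of all members, 475.36 at rank 215 of 7562, in a peak of 3349 bp, and an ab21061 peak of 4100 bp with a score of 314.10. SNAR-A12 and SNAR-C5 shared an sc8558 peak of 164.43, and SNAR-C1, at the other edge of the run, had an ab21061 peak of 63.45. The 12 copies from SNAR-A4 to SNAR-D, in a second run, had none. These wide peaks lie over repeated copies, and the source of the reads among these copies was not tested.

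LOC entries had peaks at 3 of 84 with ab21061 and 4 of 84 with sc8558. Besides those named, LOC124901190, 60 bp long on chromosome 5 (132841248 to 132841307), had 2 sc8558 peaks of 79.67 and 55.11. This entry lies within the U7-named pseudogene RNU7-15P (132841149 to 132841407), and both peaks also met the rule for that pseudogene. The nearest ab21061 midpoint lay 1054 bp from LOC124901190, just outside the rule. By contrast, the 41 genes of the spliceosomal groups and 7SK, without RNU7-1, which had no peak, had 12 with ab21061 and 12 with sc8558 (29.3% each) and 9 with both (22%). All genes, at a longer median length, had 6.72%, 6.84% and 5.08%. Among short genes under the same rule, snoRNA genes had 1.00%, 0.834% and 0.500%, and miRNA genes 0.523%, 0.627% and 0.366%. The tRNA genes had 11.1%, 9.71% and 6.77%. These differences were not tested.

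At genes with both peaks, the peaks of the antibodies largely overlapped. The rule favours this, since it picks peaks of both antibodies that lie at the same short gene. Across the 13 genes, the overlapping pair covered 73.9 to 100% of the ab21061 peak and 74.6 to 100% of the sc8558 peak, with midpoints 2 to 398 bp apart. The further ab21061 peak at RN7SK, of 66.49, did not overlap the sc8558 peak there, with midpoints 942 bp apart. The ab21061 peak had the better rank within its list at 9 genes and the sc8558 peak at RNVU1-18, RNVU1-28, RNU2-2 and SNAR-A1. Ranks in lists of different lengths show no change in binding.

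Copies annotated as pseudogenes were rarely marked. Of the 1277 U6-named pseudogenes, 7 had a peak with ab21061 and 8 with sc8558, and of the 293 named after 7SK, 2 and 3 did. The highest with ab21061, RN7SKP249 on chromosome 8 and RN7SKP95 on chromosome 15, scored 368.33 and 336.82 with ab21061 and 185.83 and 177.96 with sc8558. The highest with sc8558, RNU2-6P on chromosome 13, scored 280.12 with ab21061 and 274.11 with sc8558. Of the 23 pseudogenes with a peak, 11 lay inside a protein-coding gene, and so did 2 of the 23 snRNA genes with a peak. The shares inside protein-coding genes over all pseudogenes and all snRNA genes were not counted. These counts therefore show no difference tied to the peaks. The marked pseudogenes include RNU7-15P, which holds the member LOC124901190. Other small RNA genes differed among themselves. RN7SL1 and RN7SL2, which encode the RNA of the signal recognition particle, scored 161.48 and 256.12 with ab21061 and 146.02 and 254.83 with sc8558. RMRP and RPPH1, which encode the RNAs of RNase MRP and RNase P and have snRNA-type promoters, had no peak with either antibody.

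Protein-coding genes that make and use snRNAs were taken as 142 genes in 7 lists. Peaks met the rule at 20 with ab21061 (14.1%) and 17 with sc8558 (12%), against 13.1% and 13.3% of all protein-coding genes, and at 14 with both (9.86%), against 10.1%. The shares were near the background in the full lists. Among peaks scoring at least 100, each antibody marked 2.82% of the 142, against 6.32% and 6.18% of protein-coding genes, a difference that was not tested. By list, the factors that transcribe snRNA genes had 7 and 6 of 26, Integrator and processing factors 6 and 5 of 18, polymerase III subunits 1 and 1 of 11, the 7SK complex and P-TEFb 1 and 1 of 9, export and SMN assembly factors 2 and 0 of 20, Sm and LSm proteins 1 and 1 of 18, and other proteins of the particles 2 and 3 of 40.

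Of the 14 genes with both peaks, 6 were factors that transcribe snRNA genes and 5 were Integrator and processing factors. TBP, the TATA-binding protein used by all 3 nuclear polymerases, scored 348.82 with ab21061 and 255.32 with sc8558, 0.543 and 0.620 kb from an end of the gene. POU2F1 held 4 and 3 peaks, with highest scores of 340.84 and 244.37. ICE1, a scaffold of the little elongation complex that serves snRNA transcription, scored 83.24 and 105.98 at 0.331 and 0.287 kb from an end. SNAPC5, a SNAPc subunit, scored 50.42 and 80.95, also near an end. AFF1, a scaffold of the super elongation complex, held 3 and 5 peaks with highest scores of 175.62 and 149.82. The remaining 9 of the 14 genes with both peaks were GTF2B, ELL2, POLR3G, INTS6, INTS8, INTS10, INTS13, RPAP2 and SF3B3, with highest scores from 50.64 to 122.68 for ab21061 and from 54.99 to 98.80 for sc8558. SNAPC1, SNAPC2, SNAPC3, SNAPC4 and ZNF143, the remaining SNAPc subunits and a factor of the distal element, had no peak of either antibody.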

How the data were processed

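Chromatin immunoprecipitation libraries from NB4 cells were compared with gene positions, 1 library per antibody. Per the submitters' processing notes, Bowtie2 2.2.9, MACS 1.4.2 and the hg38 build were used; the options, the control, read filters and the treatment of reads with several matches are not given in the sources used. Each peak's score was deposited by the authors as their caller wrote it, with lists made per library. Peak starts were read as counted from 0. Gene positions, types and promoter windows came from RefSeq (GRCh38.p14), whose gene table holds no strand.

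For every gene, peaks overlapping it by 1 bp or more, or with a midpoint within 1 kb, were counted. Shares carry exact Clopper-Pearson 95% intervals, and no test was made. The counting was tested on simulated data. Members, lists and comparisons were chosen with earlier results of these data known. All members with a peak are named, and so are the pathway genes with peaks of both antibodies (14, where the rule set a limit of 12; ELL2 and SF3B3, with the lowest highest scores, were added after values were seen). Pseudogenes, other small RNA genes and pathway genes without a peak were named after their values were seen. The planned promoters of snRNA genes were replaced by neighbouring windows. Alternatives were score limits, other windows, equal lists, subsets of members and stricter overlap. Python 3.11.15, numpy 2.4.6, scipy 1.17.1 and matplotlib 3.10.9 were used.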

Additional observations from a re-analysis of the deposited data

How the results depend on the processing

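Of 87 alternative counts, 57 stayed within 1.5 times the main count. At a score of 100 or more the snRNA genes numbered 10 with ab21061, 8 with sc8558, 6 with both and 12 with either, on 10 and 7 distinct peaks, with shares of 6.49% and 5.19% against 3.20% and 3.12% of all genes. With the 3781 highest-scoring peaks of each list they numbered 10, 10, 8 and 12, on 10 and 9 peaks, with shares of 6.49% for each antibody and 5.19% for both, against 3.90%, 3.93% and 2.97% of all genes. Fewer peaks enter both settings by construction. Pathway genes numbered 4 with ab21061, 4 with sc8558 and 3 with both at a score of 100 or more (2.82%, 2.82% and 2.11% against 6.32%, 6.18% and 4.77% of protein-coding genes). With equal lists they numbered 5, 7 and 5 (3.52%, 4.93% and 3.52% against 7.70%, 7.74% and 5.92%). By gene midpoints they numbered 0, 2 and 0 (0%, 1.41% and 0% against 0.529%, 0.649% and 0.369%). Midpoints leave out peaks at the ends of long genes, among all protein-coding genes alike.

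Subsets chosen after seeing the data also lower the counts by construction. Within the spliceosomal groups and 7SK (41 genes, without RNU7-1) there were 12 genes with sc8558 on 12 peaks and 15 with either antibody. Without members of the chromosome 1 U1 clusters, the chromosome 17 stretch and the snaR genes (88 left) there were 9 with ab21061 (10.2%), 8 with sc8558 (9.09%), 6 with both (6.82%) and 11 with either, on 9 and 9 peaks. Under the same rule all genes had 6.72% with ab21061, 6.84% with sc8558, 5.08% with both and 8.48% with either. No library could be left out, depth is unknown, and a peak missing from a list may lie below its score limit. No paired analysis was possible because each antibody had 1 library.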
